A study of Mus musculus with 16 samples.

Results

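The regions described here are 7101 stretches of open chromatin that were called as peaks in CD4 single positive (SP4) and in CD8 single positive (SP8) mouse thymocytes, but in neither of the earlier stages. ATAC-seq, in which the Tn5 transposase inserts sequencing adapters wherever chromatin is accessible, was performed on thymocytes of 4 wild-type C57BL/6J mice, 9 weeks of age, and each of 4 stages was sorted from each mouse, giving 16 libraries. After cells of other lineages had been set aside with antibodies that included TER119, B220, Mac1, Gr1, CD11c, NK1.1 and the gamma delta TCR, the gates took double negative cells (DN: CD4-, CD8-, CD3-), double positive cells (DP: CD4+, CD8+), SP4 cells (CD4+, CD8-, CD3+) and SP8 cells (CD4-, CD8+, CD3+). All animals carried the same wild-type genotype and none was treated. The deposited peaks were called once per stage, on the libraries of all 4 mice pooled, at a false discovery rate of 5%.

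Overlapping peaks of the 4 lists, by 1 bp or more, were joined, which gave 185978 merged regions on chromosomes 1 to 19, and a region was kept when it held a peak of SP4 and a peak of SP8 and no peak of DN or DP. The 7101 regions, named SP4 and SP8 regions hereafter, were 3.82% of all merged regions and covered 2.96% of the open territory. For comparison, 63369 regions were called at all 4 stages, 13742 at SP4 alone, 7831 at SP8 alone, and 10401 (5.59%) at DN and DP but at neither SP stage. Because the regions were chosen by their peak calls, the calls and heights at SP4 and SP8 are a description of the choice. No spread between mice can be given for pooled calls, and intervals are 95% intervals (Wilson for a share, Newcombe for a difference of shares) that cover counting error only, over regions that are not independent replicates. The authors downsampled the libraries to the median library depth before pooling. The pooled depth still differed somewhat between stages, and the lists hold no read counts for single peaks. In such bulk sorts, fewer cells with an open site and a less open site in each cell cannot be told apart.

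A DP thymocyte whose receptor binds self-peptide on MHC with moderate affinity is positively selected, shuts down recombination, and matures into a CD4+ or a CD8+ cell. Both lineages then acquire IL-7 receptor, survival proteins and the receptors for leaving the thymus and homing to lymph nodes, such as S1PR1 and CCR7, under factors that include KLF2, FOXO1, LEF1 and TCF7. TCR signals induce the orphan nuclear receptors of the NR4A family, which bind DNA as monomers, and late maturation is known to draw on NF-kB and interferon signals. E proteins, which bind E-boxes, are by contrast prominent at the DP stage.

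The sequences shown are those around SP4 summits with a match to the NR4A, NF-kB or interferon response (ISRE) motif, the 3 motifs with the largest ratio of their share in SP4 and SP8 regions to their share in all regions. For each motif the highest region with a match and no untranslated exon part is shown first, followed by the highest such region within 50 kb of a gene of the lists used below, the latter set being chosen after its values had been seen. All are printed on the plus strand of mm10, with up to 100 bp to each side of the SP4 summit and with the match to that motif within 50 bp of the summit in capitals.
NR4A match between genes, 7678 bp from the nearest TSS, that of *Reps1*, chr10:18047823-18048023: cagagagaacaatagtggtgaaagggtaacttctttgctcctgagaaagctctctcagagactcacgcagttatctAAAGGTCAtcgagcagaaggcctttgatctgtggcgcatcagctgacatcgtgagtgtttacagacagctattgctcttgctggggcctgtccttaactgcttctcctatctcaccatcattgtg
NR4A match in an intron of *Cblb*, chr16:52093397-52093593: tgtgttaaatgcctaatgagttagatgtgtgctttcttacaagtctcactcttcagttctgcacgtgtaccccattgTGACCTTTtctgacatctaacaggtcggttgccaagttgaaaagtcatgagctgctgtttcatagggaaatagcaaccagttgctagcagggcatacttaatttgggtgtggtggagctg
NF-kB matches in an intron, nearest TSS *Traf2*, chr2:25534231-25534431: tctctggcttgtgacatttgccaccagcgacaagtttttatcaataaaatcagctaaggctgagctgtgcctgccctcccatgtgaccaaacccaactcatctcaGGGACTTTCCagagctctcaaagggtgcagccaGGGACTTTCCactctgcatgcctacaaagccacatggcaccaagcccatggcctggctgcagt
NF-kB match upstream of *Il7r*, chr15:9564260-9564460: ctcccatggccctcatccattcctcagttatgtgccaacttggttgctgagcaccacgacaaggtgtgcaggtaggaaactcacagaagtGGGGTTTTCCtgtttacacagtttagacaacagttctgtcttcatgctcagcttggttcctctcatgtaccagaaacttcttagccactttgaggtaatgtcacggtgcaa
ISRE match between genes, nearest TSS *Cubn*, chr2:13493050-13493249: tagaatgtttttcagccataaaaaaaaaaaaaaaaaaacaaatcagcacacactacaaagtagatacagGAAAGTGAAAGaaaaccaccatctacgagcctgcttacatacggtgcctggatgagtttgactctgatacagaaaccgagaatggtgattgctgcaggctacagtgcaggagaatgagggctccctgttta
ISRE match in an intron of *Tox*, chr4:6958230-6958417: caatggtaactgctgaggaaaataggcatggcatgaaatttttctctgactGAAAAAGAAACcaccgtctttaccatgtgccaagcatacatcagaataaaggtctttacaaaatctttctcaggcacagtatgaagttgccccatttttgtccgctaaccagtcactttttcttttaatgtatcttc

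The *Reps1* region had a fold enrichment over local background, as the peak caller gave it, of 19.3 at SP4 and 15.2 at SP8. Heights are given below as percentiles, the share of peaks of the same list with a lower fold enrichment, because fold enrichments of different lists were not on a common scale. On this scale the *Reps1* region stood at 91.8 in SP4 and 84.2 in SP8. The *Traf2* region, 12144 bp from the start of a gene that encodes a TNF receptor adaptor, held NF-kB matches centred 9.5 and 42.5 bp from its summit and stood at 85.7 and 84.8. It lay 121 bp from a region with a DN or DP peak. The region 34334 bp from the TSS of *Il7r*, which encodes the IL-7 receptor alpha chain, stood at 82.9 and 85.2, and its NF-kB match was centred 5.5 bp from the summit. The *Cblb* region (56.8 and 51.7) and the *Tox* region (50.5 and 60.1) were of middle height at both stages, while the *Cubn* region was high at both (96.1 and 90.6). *Cblb* encodes a ubiquitin ligase that dampens TCR signals and *Tox* a nuclear factor required for CD4+ T cell development.

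SP4 and SP8 regions were smaller than regions called at all 4 stages, but larger than those called at a single SP stage. Their median width was 213 bp (quartiles 165 and 305 bp, range 100 to 1009 bp), against 232 bp for DN and DP regions and 231 bp for all regions. The median was 465 bp where all 4 stages had a peak, 128 bp for SP4 alone and 125 bp for SP8 alone. These are widths of joined peaks, so they can grow with the number of lists. The median percentile was 36.3 in the SP4 list and 30.3 in the SP8 list. Regions called at all 4 stages had medians of 69.4 and 67.1, and those of SP4 alone and SP8 alone had medians of 23.2 and 17.1 in their own lists. Both percentiles exceeded 50 in 1118 regions (15.7%), 75 in 217 and 90 in 29, and both were below 25 in 1691 (23.8%).

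The peaks of both SP stages lay close in position, which was in part fixed by the choice, because only overlapping peaks were joined. No other class was compared. In 6938 regions each stage contributed a single peak, the distance between the SP4 and the SP8 summit had a median of 18 bp, and in 5595 regions (78.8%) it was at most 50 bp. Across the 7101 regions the percentiles of both stages had a Spearman correlation of 0.58, against 0.84 across regions called at all 4 stages. This is a description across regions that share the same pooled libraries. The SP4 percentile was higher by over 25 points in 1192 regions and the SP8 percentile in 518. Of 20843 regions with an SP4 peak and no DN or DP peak, 34.1% were also called at SP8, and of 14932 regions with an SP8 peak and no DN or DP peak, 47.6% were also called at SP4. These shares increased with height, from 24.5% to 79.8% between the lowest and the highest percentile band of SP4, and from 35.0% to 92.1% for SP8.

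**Figure D1:**
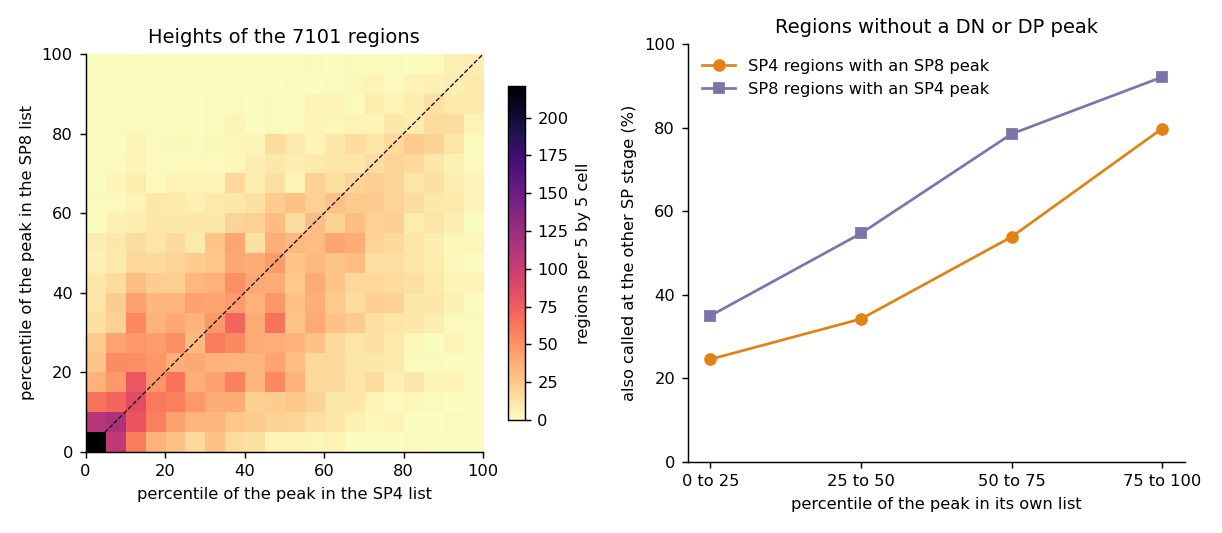
Left, number of SP4 and SP8 regions by the percentile of their peak in the SP4 list (x axis) and in the SP8 list (y axis), with equal percentiles as a dashed line. Right, share of SP4 regions (circles) and of SP8 regions (squares) without a DN or DP peak that were also called at the other SP stage, by the percentile of the peak in its own list. Most regions lie in the lower left, and the shares climb from 24.5% and 35.0% to 79.8% and 92.1%.

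At the edge of the choice, the lower of the SP4 and SP8 -log10 q-values of a region was 1.44 at least and 7.45 at the median, and 39 regions had a value under 2. Just outside stood 7539 regions with DN, SP4 and SP8 peaks, whose DN -log10 q-value was 1.77 at least (median 11.9), and 3286 regions with DP, SP4 and SP8 peaks, whose DP value was 1.83 at least (median 8.08). A region without a DN or DP peak is one in which no peak passed the threshold, not one shown to be closed. In addition, 1821 SP4 and SP8 regions (25.6%) lay less than 500 bp from a region with a DN or DP peak, the median gap being 1726 bp.

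SP4 and SP8 regions seldom overlapped promoters and lay mainly in introns. Only 283 overlapped the 200 bp upstream of a TSS (3.99%, interval 3.55 to 4.47%), against 9.33% of DN and DP regions, 12.4% of all regions and 25.2% of regions called at all 4 stages. The difference from DN and DP regions was -5.34 percentage points (-6.06 to -4.61), with SP4 and SP8 regions lower on 19 of 19 chromosomes. A further 838 regions (11.8%) overlapped an exon, 3853 (54.3%) lay in introns and 2127 between genes. The share that touched neither a promoter nor an exon was 84.2% (83.3 to 85.0%), 9.71 points above DN and DP regions (8.51 to 10.9), again on 19 of 19 chromosomes. It was close to the shares at SP8 alone (83.8%, difference 0.39 points, -0.79 to 1.57) and slightly under that at SP4 alone (86.1%, difference -1.84 points, -2.87 to -0.82). The median distance to the nearest TSS was 6781 bp, against 5002 bp for DN and DP regions and 3146 bp where all 4 stages had a peak, and exceeded that of DN and DP regions on 18 chromosomes.

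**Figure D2:**
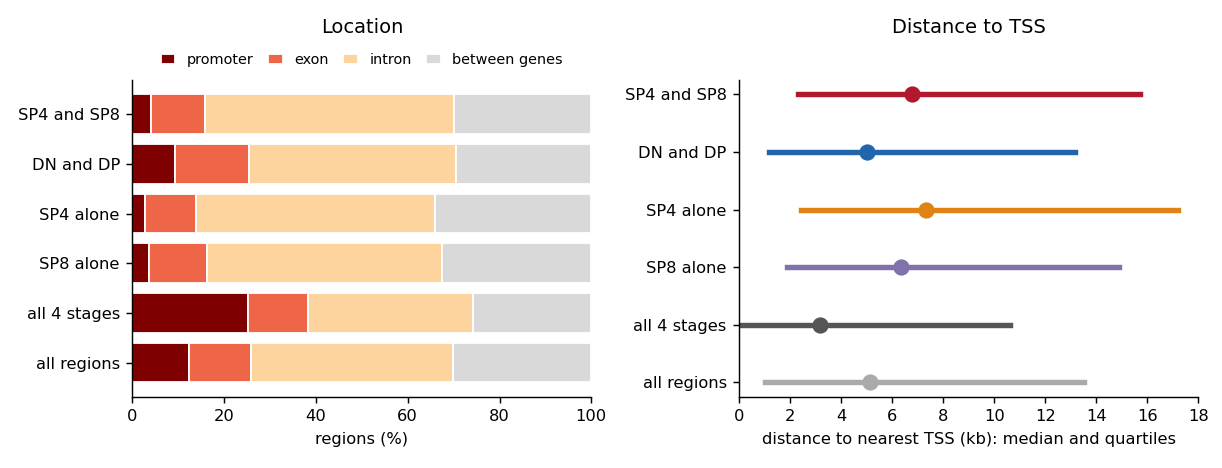
Left, share of regions of each class (rows) that overlapped a promoter, else an exon, else lay in an intron or between genes. Right, distance to the nearest TSS in kb, with the median as a point and the quartiles as a bar. SP4 and SP8 regions had a promoter share of 3.99% and a median distance of 6781 bp, and regions called at all 4 stages 25.2% and 3146 bp.

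The DNA around the summits of SP4 and SP8 regions was poorer in G and C. The median GC content of the 100 bp around the summit was 49% against 55% for DN and DP regions, lower on all 19 chromosomes, and 66.3% of these windows held a CpG against 72.2%. The low GC content was shared with regions of SP4 alone (49%, CpG in 63.1% of windows) and of SP8 alone (51%, 65.04%). Bases marked as repeats in the reference made up more than 50 bp of the window in 693 SP4 and SP8 regions (9.76%), against 6.23% of DN and DP regions and 4.52% of regions called at all 4 stages. The share was still higher in regions of SP4 alone (11.0%, difference -1.24 points, -2.10 to -0.37) and of SP8 alone (13.2%, difference -3.43 points, -4.45 to -2.41). Among the 20 highest regions 2 were of this kind.

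Motif matches were counted in the same 100 bp windows, on both strands and without mismatch, for 24 motifs. The letters searched were AAAGGTCA for NR4A, CTTTGAA or CTTTGAT for TCF7/LEF1, TGACTCA or TGAGTCA for AP-1, CCACACCC or CCACGCCC for KLF, GTAAACA for FOXO, ACAATGG or ACAATAG for SOX, TGGAAAA for NFAT and AGATAA or TGATAA for GATA. They were TGACAGNT for PKNOX, TTCCNGGAA or TTCCNNGAA for STAT, AGGTGTGA for T-box, TTGGGAA for IKZF, TGTGGTT or TGCGGTT for RUNX, TGCTGAC for MAF, AGGAAGT or CGGAAGT for ETS and AACTGCC or AACGGCC for MYB. The remaining motifs were GGGGCGGGG for SP, GCGTGGGCG or GCGGGGGCG for EGR, TGACGTCA for CRE, CAGCTG or CAGGTG for the E-box, and longer consensus motifs for NF-kB, ISRE, CTCF and ROR. A match is a run of letters and not a bound site, and a window without a match says nothing of the factor. In SP4 and SP8 windows, matches of different motifs seldom shared bases: the most frequent overlap was 2.42% for NR4A (with TCF7/LEF1), 3.19% for NF-kB (with NFAT) and 2.30% for ISRE (with GATA), and among motifs with over 100 windows the largest was 13.4%, for PKNOX with the E-box.

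NR4A matches stood out most. They were present in 124 SP4 and SP8 windows (1.75%, 1.47 to 2.08%), against 0.337% of windows of all regions, a ratio of 5.18. The share was 0.24% in regions called at all 4 stages and 0.0961% in DN and DP regions, from which SP4 and SP8 regions differed by 1.65 points (1.36 to 1.98), with a higher share on 19 of 19 chromosomes. It was also above that in regions of SP4 alone (1.13%, difference 0.62 points, 0.28 to 0.99) and of SP8 alone (0.536%, difference 1.21 points, 0.87 to 1.57). Within the regions, NR4A matches were denser in the 50 bp on either side of the summit (0.196 per kb) than 150 to 500 bp away (0.0638 per kb, log2 ratio 1.62), whereas in DN and DP regions they were sparser at the centre (0.0115 against 0.0486 per kb). The share was 1.05% in the lowest 25% and 2.82% in the highest 25% of the regions by height.

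NF-kB matches showed a similar contrast. They occurred in 94 windows (1.32%, 1.08 to 1.62%), which was 3.78 times the share in all regions (0.35%) and 10.6 times that in DN and DP regions (0.125%). SP4 and SP8 regions exceeded DN and DP regions by 1.20 points (0.94 to 1.497) and regions of SP4 alone by 0.74 points (0.46 to 1.06), the former on all 19 chromosomes. Their density at the centre was 0.142 per kb against 0.0356 per kb in the flanks (log2 ratio 1.998). ISRE matches, the sequence bound by interferon-activated complexes and IRF factors, were found in 174 windows (2.45%, 2.12 to 2.84%) against 1.22% of all regions and 0.519% of DN and DP regions (difference 1.93 points, 1.56 to 2.34), with a log2 ratio of centre to flank of 0.49. Of the 7101 regions, 389 (5.48%) held at least 1 of these 3 motifs, against 1.89% of all regions, 3.15% of SP4 alone and 2.59% of SP8 alone. The 3 motifs had been chosen by their ratio to all regions. Only 3 SP4 and SP8 regions held more than 1. Thus, most SP4 and SP8 regions carried none of them in the window.

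Matches to the motifs of other T cell factors were more common but less distinct. TCF7/LEF1 matches, the sequence of the HMG factors that establish and maintain T cell identity, were in 7.29% of SP4 and SP8 windows (6.71 to 7.92%), against 3.65% of DN and DP windows (difference 3.64 points, 2.95 to 4.36) and 6.93% of SP4 alone (difference 0.36 points, -0.37 to 1.11). AP-1 matches were in 4.96% (4.48 to 5.49%) against 2.70% in DN and DP regions, with a log2 ratio of centre to flank of 1.54. KLF matches were in 2.82% (2.46 to 3.23%) against 1.45%, with a log2 ratio of 1.20, and did not differ detectably from regions of SP8 alone (3.12%, difference -0.30 points, -0.84 to 0.25). FOXO, SOX, NFAT and GATA matches were also above regions of all 4 stages, by 0.45 points (0.16 to 0.79), 0.70 points (0.38 to 1.06), 0.40 points (0.18 to 0.68) and 2.42 points (1.82 to 3.07), respectively. GATA matches were more common still at SP4 alone (8.70%, difference -1.47 points, -2.23 to -0.70), and SOX matches did not differ detectably from SP4 alone (0.13 points, -0.26 to 0.54) or SP8 alone (-0.03 points, -0.48 to 0.43). Nor did NFAT matches (0.16 points, -0.11 to 0.46, and 0.09 points, -0.24 to 0.41). FOXO matches did not differ detectably from SP4 alone (0.26 points, -0.09 to 0.64) but exceeded SP8 alone (0.43 points, 0.04 to 0.83). For SOX, NFAT and GATA, however, the density at the centre was below that of the flanks of the same regions (log2 ratios -0.13, -1.37 and -0.59). The GC content of the windows was also lower, as given above, and its part in these shares was not tested.

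By ratio to all regions, ROR (0.132) and CRE (0.387) matches stood lowest, followed by E-box matches (0.430). E-box matches had the largest deficit in percentage points. They were in 10.0% of SP4 and SP8 windows (9.32 to 10.7%), against 47.7% of DN and DP windows, a difference of -37.7 points (-38.9 to -36.5) seen on all 19 chromosomes. The shares at SP4 alone (11.7%) and SP8 alone (13.0%) were also far below that of DN and DP regions. Their density at the centre of SP4 and SP8 regions (1.12 per kb) was about that of the flanks (1.21 per kb), while in DN and DP regions it was 6.37 per kb at the centre and 1.61 in the flanks. ROR matches were in 4 of 7101 windows (0.0563%, 0.0219 to 0.145%) against 0.356% of DN and DP windows. CTCF matches were in 0.789% (0.608 to 1.02%), below the 2.41% of regions called at all 4 stages. This was above the 0.481% of DN and DP regions (difference 0.31 points, 0.07 to 0.57) and the 0.189% of SP4 alone. It did not differ detectably from SP8 alone (1.06%, difference -0.27 points, -0.58 to 0.04). RUNX matches, in 5.75% (5.23 to 6.31%), did not differ detectably from DN and DP regions (difference 0.42 points, -0.27 to 1.12), and ETS matches, in 9.89% (9.21 to 10.6%), differed from them by -1.03 points (-1.94 to -0.10). In all, 10 of 24 motifs were above regions of all 4 stages with an interval that excluded 0 and 9 were below them. Against DN and DP regions, 11 were above and 6 below.

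**Figure D3:**
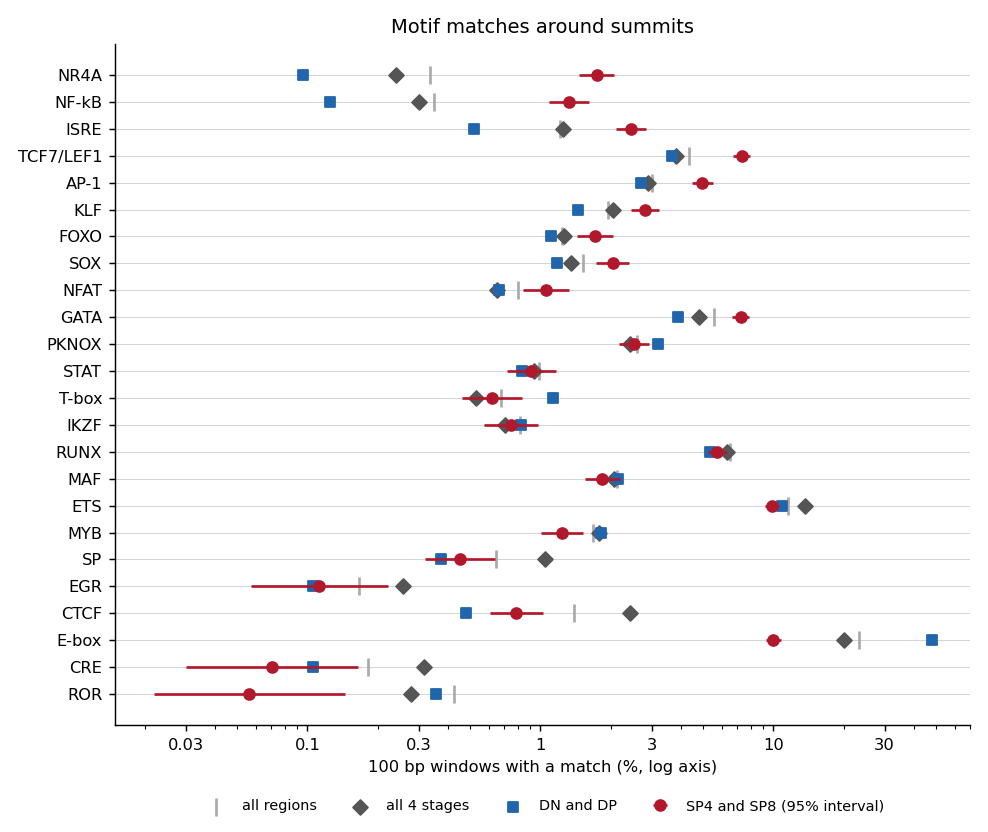
Share of 100 bp windows around summits with a match to each of 24 motifs (rows, ordered by the ratio of SP4 and SP8 regions to all regions), on a log axis. Circles with 95% Wilson intervals are SP4 and SP8 regions, squares DN and DP regions, diamonds regions called at all 4 stages and ticks all regions. NR4A, NF-kB and ISRE lead at 1.75%, 1.32% and 2.45%, and E-box matches stand at 10.0% against 47.7% in DN and DP regions.

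**Figure D4:**
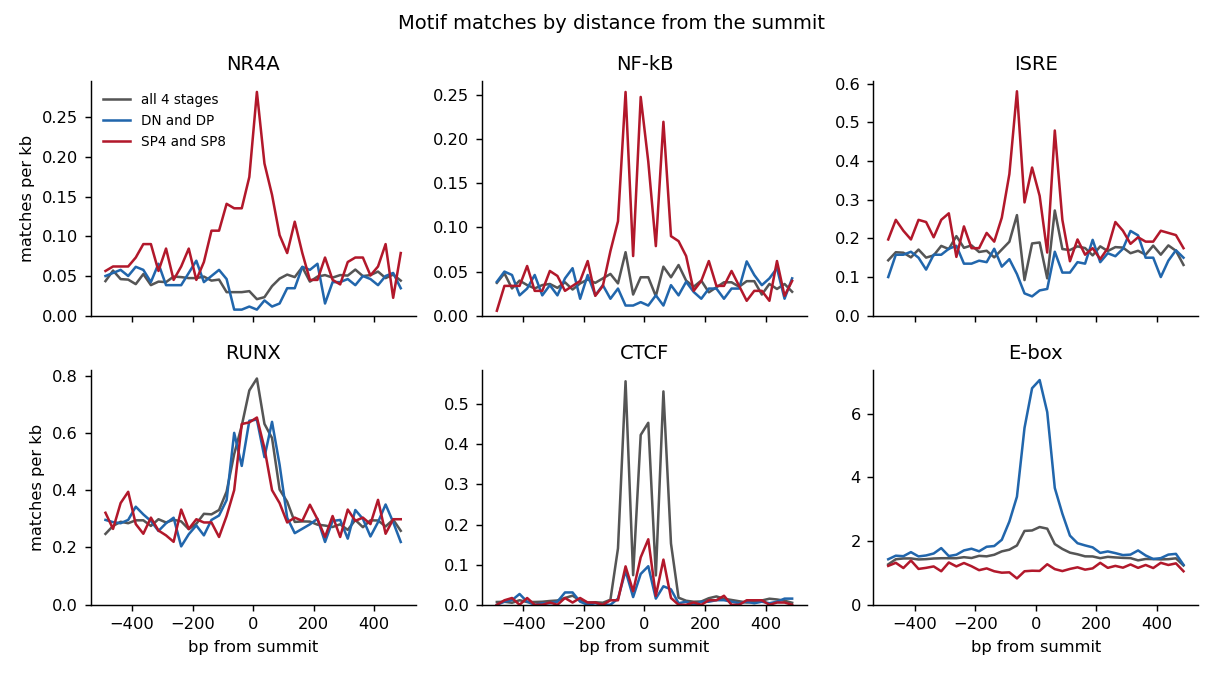
Matches per kb in 25 bp bins against the distance from the summit in bp, for 6 motifs in SP4 and SP8 regions (red), DN and DP regions (blue) and regions called at all 4 stages (grey). NR4A matches of SP4 and SP8 regions peak at the summit (0.282 per kb in the bin just right of it), NF-kB and ISRE matches form 3 bands at the summit and about 62.5 bp to each side, and E-box matches peak only in the other classes.

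The profile over distance showed that the NF-kB and ISRE matches were not all near the summit. For NF-kB the density in SP4 and SP8 regions was 0.248 per kb in the bin just left of the summit, 0.253 and 0.22 per kb in the bins 62.5 bp to the left and right, and 0.0676 and 0.0789 per kb in the bins at 37.5 bp between them. ISRE matches (0.58 per kb at 62.5 bp to the left) and, in regions called at all 4 stages, CTCF matches had the same 3 bands. A 100 bp window therefore missed part of these matches. In 200 bp windows, 2.92% of SP4 and SP8 regions held an NF-kB match against 0.846% of all regions, and 5.90% held an ISRE match against 3.19%.

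SP4 and SP8 regions lay near each other. The nearest other region was itself an SP4 and SP8 region for 10.4% of them, against 3.84% of all regions, and a DN and DP region for 2.86%, against 5.61%. The other classes also lay near their own kind. The nearest region was of the same class for 14.3% of SP4 alone regions, against 7.14% of all regions. For SP8 alone it was 9.81% against 4.37%, and for DN and DP regions 10.4% against 5.61%. Another SP4 and SP8 region lay within 10 kb of 1920 SP4 and SP8 regions (27.0%), against 14.5% of all regions. This share was 23.6% for SP8 alone and 17.9% for SP4 alone. When regions no more than 20 kb apart were joined, 2941 (41.4%) fell into 1149 runs of 2 or more and 4160 stood alone. The longest run by members held 16 regions over 142273 bp of chromosome 16 (23141007 to 23283279), from *Adipoq* into *St6gal1*, which encodes a sialyltransferase, with 1 DN and DP region among its 49. It was followed by a run of 14 over a gene desert of chromosome 17 (51894375 to 52030801) whose nearest gene is *Satb1*, a chromatin organizer of thymocytes, in which 0 of 38 regions were called at DN and DP alone. A run of 13 lay over *Btg1*, an antiproliferative factor, on chromosome 10 (96534872 to 96656528), a run of 11 over *Lef1* on chromosome 3 (131106083 to 131173414) and a run of 11 over *Foxp1* on chromosome 6 (99395766 to 99471284). The share of SP4 and SP8 regions per chromosome ranged from 3.10% on chromosome 19 to 4.79% on chromosome 15.

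Of 18827 protein-coding genes with any merged region in the gene or within 50 kb, 7309 (38.8%) had at least 1 SP4 and SP8 region there, 315 had 5 or more and 36 had 10 or more. *Foxp1*, which encodes a forkhead factor required for naive T cell quiescence, had the most, 30 of 225 regions, all within the gene. *Bach2*, which encodes a repressor that holds T cells in the naive state, followed with 26 of 154, of which 24 lay in the gene, while 1 region there was called at DN and DP. *Inpp4b*, which encodes an inositol phosphatase that limits PI3K signalling, had 24 of 116, all in the gene, with 0 DN and DP regions and 42 of SP4 alone. Long or overlapping gene models also reached the top by size, namely *Gm20388* (24 of 1156), *Fgfr2* (15 of 326) and *Gm20696* (20 of 177), which overlaps *Foxp1*. The other genes of the 10 with the most were *Asap1* (16 of 92), *Chd7* (15 of 58), *St6gal1* (15 of 68) and *Hecw2* (14 of 76). By share among genes with at least 8 regions, *Gm12166* (6 of 15), *Ifi214* (7 of 18), *Gm47955* and *Gm7544* (neighbours, each 5 of 13), *Ifi213* (5 of 14) and *Ms4a4b* (12 of 36) led, followed by *Pdcd10* (4 of 12), *Bcl2a1b*, *Ccnh* and *Glud1* (each 3 of 9). *Ifi213* and *Ifi214* belong to the interferon-inducible PYHIN family, and *Ms4a4b* encodes a membrane protein of mature T cells.

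At *Bach2* the regions were spread over the locus, with summits from -29854 to 335318 bp relative to the gene start. The highest, at 97057 and 136584 bp into the gene, had percentiles of 85.4 and 78.4 at SP4 and of 77.8 and 82.8 at SP8, and the medians over the 26 regions were 23.0 and 26.3. Most sites at *Bach2* were thus of low height at both stages. The regions of *Inpp4b* were higher, with medians of 54.7 and 46.7 over 24 regions and a highest SP4 value of 90.8 in the site nearest the gene start, 15236 bp from the gene start. Those of *Foxp1* had medians of 23.1 and 20.7.

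Genes were then grouped into 22 lists. Within 50 kb of the 12 lists of the mature T cell program, 450 of 6374 merged regions (7.06%, 6.46 to 7.71%) were SP4 and SP8 regions, against 3.82% of all merged regions. At 2 lists of the immature program the share was 3.27% (2.36 to 4.52%), at 6 lists of other immune cells 4.14% (3.26 to 5.24%), and at 2 lists of unrelated tissues, neuron and hepatocyte, 1.54% (0.66 to 3.55%). The shares of DN and DP regions were 4.27% at the mature lists, 8.50% at the immature, 5.10% at those of other cells and 7.69% at the unrelated ones, against 5.59% of all regions. Regions of SP4 alone made up 7.44% and regions of SP8 alone 6.997% of those at the mature lists, and 5.42% and 2.99% at the immature lists. Of all 185978 merged regions, 13742 were of SP4 alone and 7831 of SP8 alone. Regions of SP8 alone were thus also more common at the mature lists than among all regions, while regions of SP4 alone were about as common. A region near genes of several lists counts in each single list below, but only once within each kind of list in the pooled shares above.

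Genes of naive cells and thymic egress had the highest share, 49 of 409 regions (11.98%, 9.18 to 15.5%), beside 39 of SP8 alone (9.54%) and 26 of SP4 alone (6.36%). At least 1 SP4 and SP8 region lay at 11 of 13 genes, and there were 8 DN and DP regions in all. *Ms4a4b* had 12 of 36 and its neighbour *Ms4a6b* 8 of 38, in part the same sites. The *Ms4a4b* sites included 1 over its own TSS (percentiles 78.1 and 76.8) and 3 more over other promoters of the cluster. *Foxo1*, which encodes a forkhead factor that induces *Klf2* and *Il7r*, had 8 of 64, all within the gene. *Ccr7*, the receptor for lymph node homing, had 7 of 49, of which the highest at SP4 lay 24162 bp downstream of the gene start (63.5 and 44.7) and 5 stood below percentile 20 at both stages. *S1pr1*, the egress receptor, had 5 of 30 and *Klf2* 3 of 36, while *Rasgrp2* (0 of 29) and *Slfn2* (0 of 20) had none.

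TCR signalling and costimulation genes had 79 of 844 regions (9.36%, 7.58 to 11.5%), at 20 of 22 genes, beside 89 of SP8 alone (10.5%) and 71 of SP4 alone (8.41%). *Prkcq*, which encodes protein kinase C theta, had 10 of 58, *Ptprc* (CD45) 10 of 62 and *Cblb* 7 of 49. *Zap70* (0 of 40) and *Vav1* (0 of 27) had none. Positive selection response genes had 38 of 431 (8.82%, 6.49 to 11.9%), at 11 of 12 genes. *Tox* had 13 of 75, *Cd5* and its neighbour *Cd6*, inhibitory receptors set by TCR signal strength, 9 of 42 and 9 of 49, and *Nr4a1*, an immediate target of the TCR, 5 of 40. The *Tox* sites were among the higher ones, with medians of 48.5 at SP4 and 35.7 at SP8.

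T cell transcription factor genes had 114 of 1302 regions (8.76%, 7.34 to 10.4%), and the median share per gene was lower, 5.61%. *Foxp1* gave 30 and *Bach2* 26 of the 114 regions, followed by *Lef1* (12 of 93) and *Bcl11b* (9 of 91). In contrast, *Tcf7* had 1 of 61 and *Gata3* 0 of 44. Adhesion and chemokine receptor genes had 6.65% (4.87 to 9.04%), with *Gpr183*, an oxysterol receptor, at 8 of 50. Cytokine receptor and SOCS genes had 41 of 687 (5.97%, 4.43 to 7.996%), at 16 of 21 genes. At *Il7r* 6 of 26 regions were SP4 and SP8 regions and 0 were called at DN and DP. Of these 6, those with an NF-kB match were the highest and the third highest at SP4, with percentiles of 82.9 and 48.3, and at SP8 they were the highest, with 85.2 and 66.0. *Il18rap* (4 of 19), *Il27ra* (4 of 32) and *Il2rb* (4 of 36) also had 4.

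Shares at the remaining mature lists were closer to that of all regions. They were 5.95% for helper lineage genes (4.12 to 8.51%), where *Rora* had 13 of 100 and *Zbtb7b*, which encodes the CD4 lineage factor ThPOK, 0 of 33, and 5.57% for cytotoxic lineage genes (3.71 to 8.29%), where *Runx3*, the CD8 lineage factor, had 4 of 66 beside 15 of SP8 alone. Survival and death genes had 5.91% (3.97 to 8.72%), with *Bcl2* at 5 of 81, *Mcl1* at 4 of 35 and *Cflar* at 4 of 31. AP-1 and NFAT genes had 5.51% (4.02 to 7.497%), in which *Bach2* gave 26 of the 37 regions. NF-kB and TNF receptor genes had 5.24% (3.52 to 7.74%), the same as their share of DN and DP regions. *Tnfaip3*, the inhibitor A20, had 5 of 26 and *Cd27* 4 of 29, and *Rel*, *Rela* and *Nfkb2* had none. MHC class I and interferon genes had 5.17% (3.41 to 7.78%), with *Nlrc5* at 4 of 53 and *B2m* at 3 of 27.

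**Figure D5:**
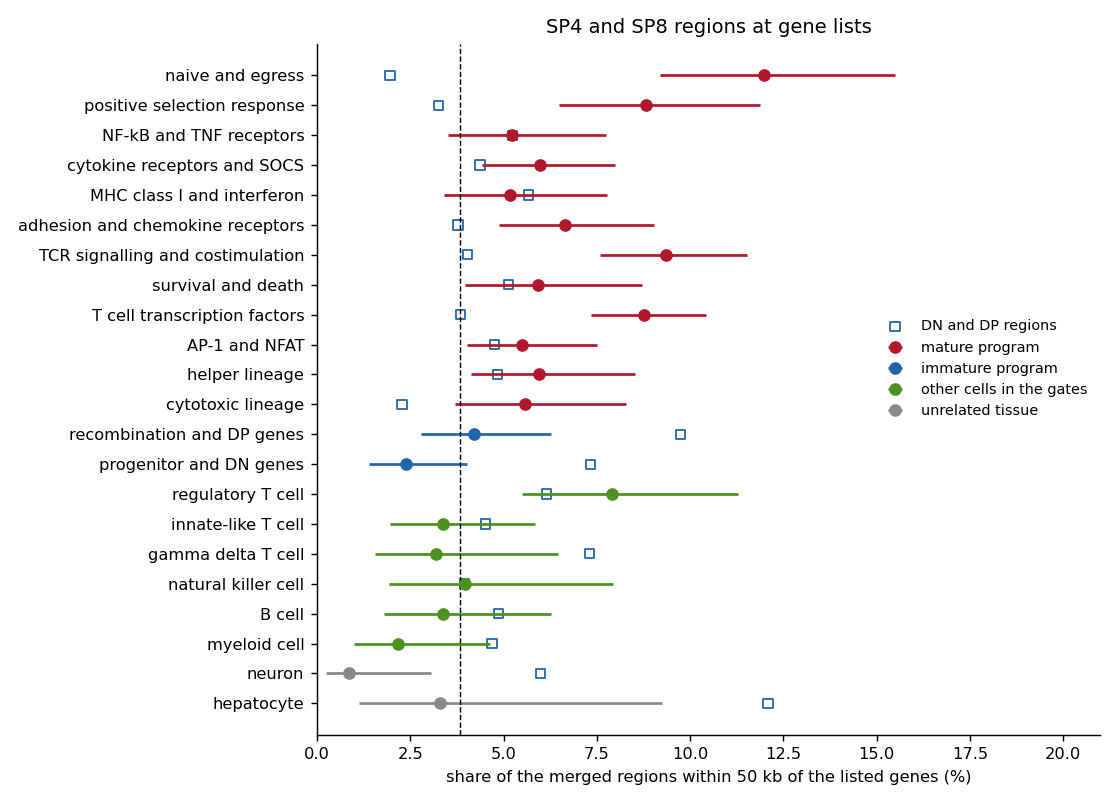
Share of the merged regions within 50 kb of the genes of each list (rows) that were SP4 and SP8 regions (circles with 95% Wilson intervals, coloured by kind of list) or DN and DP regions (open squares). The dashed line is the 3.82% of all merged regions that were SP4 and SP8 regions. Naive and egress genes stand highest at 11.98%. At the recombination, progenitor, neuron and hepatocyte lists, among others, DN and DP regions outnumber SP4 and SP8 regions, as they do among all merged regions (5.59% against 3.82%).

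At these genes of the earlier stages, SP4 and SP8 regions were fewer than DN and DP regions, as among all merged regions (3.82% against 5.59%). At both lists the interval of the SP4 and SP8 share included 3.82%. Recombination and DP genes had 22 of 524 (4.20%, 2.79 to 6.27%) against 51 DN and DP regions (9.73%), and *Themis*, required for positive selection, had the most with 6 of 66. *Rag1* had 2 of 37 and *Rag2* 2 of 36, and *Ptcra* 0 of 24. Progenitor and DN genes had 13 of 546 (2.38%, 1.397 to 4.03%) against 40 (7.33%). Of these, *Kit* had 3 of 24 and *Lyl1* 3 of 33, and *Notch1* (0 of 65), *Erg* (0 of 68) and *Hoxa9* (0 of 46) had none.

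At 5 lists of other immune cells, the interval of the share included the 3.82% of all regions, while the list of regulatory T cells stood above it. Antibodies used in the sort were directed at B, myeloid, natural killer and gamma delta T cells. B cell genes had 9 of 267 (3.37%, 1.78 to 6.28%), with 0 of 20 at *Pax5*. Myeloid genes had 6 of 277 (2.17%, 0.996 to 4.64%), natural killer cell genes 7 of 177 (3.95%, 1.93 to 7.94%), innate-like T cell genes 12 of 354 (3.39%, 1.95 to 5.83%) with 0 of 50 at *Zbtb16*, and gamma delta T cell genes 7 of 219 (3.20%, 1.56 to 6.45%). Regulatory T cell genes had 27 of 341 (7.92%, 5.50 to 11.3%). The neighbouring genes *Izumo1r* (9 of 32) and *Gpr83* (7 of 27), for folate receptor 4 and a G protein-coupled receptor, gave the most, in part from the same sites, followed by *Ctla4* and *Ikzf2* with 5 of 41 and 5 of 44, while *Il2ra* had 0 of 41. The part of a few regulatory T cells within the sorted SP4 cells was not tested.

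Of the 450 SP4 and SP8 regions within 50 kb of genes of the mature lists, 6 held an NR4A match (1.33%), against 1.75% of all SP4 and SP8 regions. They were at *Foxo1*, *Itgal*, *Cd44*, *Cblb*, *Mafk* and the *Ms4a4b* and *Ms4a6b* cluster. An NF-kB match was held by 7 of them (1.56%, against 1.32%), namely 2 at *Il7r*, 2 at *Rora*, and 1 each at *Lck*, *Prkcq* and *Tap2*. The 7 with an ISRE match were at *Foxo1*, *Tox*, *Cd28*, *Lef1*, *Bcl11b*, *Bach2* and the *Tap1*, *Tap2*, *Psmb8* and *Psmb9* cluster, which encodes the peptide transporter and immunoproteasome subunits. These 7 were 1.56% of the regions there, against 2.45% of all SP4 and SP8 regions. Apart from *Tox* their SP8 percentile was 17.0 or less, and at SP4 the *Foxo1* region stood at 41.3.

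The regions with the highest peaks were mostly not near these genes. By the lower of both percentiles, the first was 10654 bp from the TSS of *Tnpo1*, over an annotated exon outside the protein-coding genes of GENCODE, with fold enrichments of 37.5 at SP4 and 35.0 at SP8, percentiles of 99.9 and 99.6 and no DN or DP region within 7142 bp. The second lay in an intron of *Dph6* (35.3 and 31.4, nearest DN or DP region 39131 bp away), the third between genes 103450 bp from *Tank* (34.7 and 27.5) and the fourth in an intron of *Acer3* (30.2 and 27.4). The fifth lay between genes 12388 bp from *Tmsb10* (26.3 and 26.01), and the sixth, over an exon of *Tm7sf3*, is not printed because the window holds an untranslated exon part. Their sequences are shown as the strongest sites called in both lineages, with matches to any of the 24 motifs within 50 bp of the summit in capitals (ETS at *Dph6*, FOXO at *Acer3*, ETS and SOX at *Tmsb10*).
Nearest TSS *Tnpo1*, chr13:98937182-98937382: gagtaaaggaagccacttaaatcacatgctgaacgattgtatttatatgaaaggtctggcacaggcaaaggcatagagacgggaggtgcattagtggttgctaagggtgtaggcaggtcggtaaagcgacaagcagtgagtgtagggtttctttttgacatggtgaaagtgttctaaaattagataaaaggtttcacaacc
Intron of *Dph6*, chr2:114614763-114614963: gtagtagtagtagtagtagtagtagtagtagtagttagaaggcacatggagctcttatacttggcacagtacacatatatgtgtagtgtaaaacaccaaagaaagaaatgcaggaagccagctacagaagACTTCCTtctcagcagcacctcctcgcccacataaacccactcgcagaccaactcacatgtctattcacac
Nearest TSS *Tank*, chr2:61474715-61474915: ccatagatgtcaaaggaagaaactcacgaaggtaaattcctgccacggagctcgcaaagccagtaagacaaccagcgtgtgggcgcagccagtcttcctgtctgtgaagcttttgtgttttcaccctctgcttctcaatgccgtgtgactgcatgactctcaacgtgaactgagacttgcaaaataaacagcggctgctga
Intron of *Acer3*, chr7:98252653-98252853: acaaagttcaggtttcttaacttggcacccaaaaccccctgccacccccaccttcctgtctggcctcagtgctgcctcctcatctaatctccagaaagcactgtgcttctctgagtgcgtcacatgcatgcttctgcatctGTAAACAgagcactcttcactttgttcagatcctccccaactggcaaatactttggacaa
Nearest TSS *Tmsb10*, chr6:72971177-72971377: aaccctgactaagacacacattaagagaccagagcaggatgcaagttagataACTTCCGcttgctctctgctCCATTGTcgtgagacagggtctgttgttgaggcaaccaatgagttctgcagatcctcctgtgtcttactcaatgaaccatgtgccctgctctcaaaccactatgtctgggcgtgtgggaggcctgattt

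No NR4A, NF-kB or ISRE match lay within 50 bp of these 5 summits, and more than 50 bp of the 100 bp around the summit at *Dph6* were marked as repeat. Of the next 14 regions, 1 in intronic sequence 45674 bp from *Eomes*, which encodes a T-box factor of memory CD8+ cells, carried TCF7/LEF1 and MAF matches (percentiles 94.8 and 96.7). Another lay 438385 bp from *Myc* (93.9 and 96.8), and another in an exon of *Rab11a* carried an ISRE match (94.0 and 94.8). The others lay near or in *Fbxo25*, *Ppp2r5d*, *Pced1b*, *Trmt12*, *Swap70*, *Nf2*, *Mgll*, *Bub1b*, *Rad51b*, *Arfip1* and *Pgpep1l*, with lower percentiles between 92.8 and 95.1.

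Promoters were few among the regions, and 87 regions overlapped a promoter of a protein-coding transcript of GENCODE, without the further RefSeq transcripts. The highest promoter site was at *Tank*, which encodes an adaptor of TRAF proteins, on chromosome 2 from 61578375 to 61578856 (percentiles 89.5 and 93.6), and the third highest region of all lay upstream of the same gene. The *Tank* promoter was followed by *Bnipl* (81.3 and 86.2), *Ms4a4b* (78.1 and 76.8), *Plagl1* (78.6 and 72.8) and *Myo10* (90.5 and 71.9). *Ms4a4c* (77.5 and 60.2) and *Gimap3* (79.3 and 66.8), which encodes a GTPase of T cell survival, were also among the 15 highest, with *1500009L16Rik*, *Gm8369*, *B230118H07Rik*, *Gm12166*, *Ankrd55*, *Lgals3*, *Cdk17* and *Zfyve27*. Several T cell genes further down that order were noted after their values had been seen. At *Cd2*, *Gimap4*, *Il2*, *Cblb*, *Tnfrsf4* and *Tnfaip3* an SP4 and SP8 region overlapped the promoter of at least 1 transcript. Their lower percentiles fell from 43.3 at *Cd2* to 1.58 at *Tnfaip3*. The *Tnfaip3* summit lay 3809 bp inside the gene, and the *Cblb* region began at 52049550, inside a gene that starts at 52031225. Promoters of *Cd22*, *Lhx1* and *Notch3* were in the same order.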

How the data were processed

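Thymocytes of 4 mice were sorted into 4 stages and profiled by ATAC-seq. Per the study's methods, the authors aligned reads to mm10 with BWA and removed duplicates. They then downsampled to the median library depth, pooled the libraries per stage and called peaks with MACS2 at a false discovery rate of 5%. The fold enrichment (a ratio to local background) and the -log10 q-value of each peak are used as the authors deposited them. Because the lists used here are of pooled libraries, no test between mice was made.

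The regions and gene lists were chosen with earlier results of these data known. Annotation was GENCODE M21 with RefSeq transcripts (251533 in all, build GRCm38). Promoters were the 200 bp before a TSS, and genes took regions within 50 kb. Motif windows were 100 bp around the SP4 summit (for regions without one, the summit of another stage). Genes were named by a fixed rule: up to 4 genes with the most regions in each list, the 10 genes with the most regions and the 10 with the highest share among those with 8 or more, the 20 highest regions, the 15 highest promoter sites and the 5 runs with the most regions. Sequences are of the highest regions, overall and with each of the 3 leading motifs, outside chromosome 18. Other genes, among them those named with few or 0 regions, were chosen after their values were seen. Some listed genes and antibodies are not reported here. All code was first tested on simulated data. Python 3.11.15, numpy 2.4.6, pandas 2.3.3, scipy 1.17.1 and matplotlib 3.10.9 were used.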

Additional observations from a re-analysis of the deposited data

How the results depend on the processing

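No paired analysis was possible because the peak lists used here were called on the pooled libraries of each stage, and for the same reason no mouse was left out. Of 177 values recomputed under alternative settings, 144 stayed within the interval of the main value (counts within 1.5 times), 33 moved and 0 results whose interval excluded 0 changed sign. In 6 cases a difference from all regions that was not distinguishable from 0 changed sign: EGR, T-box and PKNOX matches under 5 settings (at most 0.02 points) and the immature gene lists, which went from -0.55 to 0.51 points with genes taken within 10 kb. The number of SP4 and SP8 regions was 7101 and became 6978 with peaks at q of 0.001 or less, 6986 with a stricter overlap of the SP4 and SP8 peaks, and 8863 with lists of equal length. It was 5280 without those less than 500 bp from a DN or DP peak. Leaving out repeats, and recounting the gene lists without regions near a DN or DP peak, were added after the data were seen. The promoter share of 3.99% became 9.24% with 1000 bp promoters, 2.24% by the summit alone, 1.82% with protein-coding transcripts only and 3.47% without regions less than 500 bp from a DN or DP peak. The share outside promoters and exons became 80.02%, 87.7% and 90.7% under the first 3 of these settings. The median distance to a TSS became 17526 bp with protein-coding transcripts and 7355 bp without regions near a DN or DP peak. Of the 24 motifs, 10 stood above regions called at all stages, and 9 with 200 bp windows. A missing DN or DP peak can be a weak site under the threshold.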
